A study of Rattus norvegicus with 16 samples.

Results

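The macrophages that line the liver sinusoids, the Kupffer cells, and the other leukocytes of the liver were followed through 10 genes in rat pups whose mothers had or had not received a mixture of environmental contaminants. The genes were Marco, Cd163, Clec4f, Cd68, Aif1, C1qa, C1qb, C1qc, Coro1a and Lst1. They were found as the non-control array probes whose RefSeq identifier belongs to one of these rat symbols, which gave 11 of the 30367 probes on the array. Aif1 had 2 probes and each other gene had 1. All 10 genes were among the 12072 genes or identifiers that were bright enough to be tested.

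Livers came from male Sprague-Dawley pups at postnatal day 21, and there were 4 groups of 4 arrays. MM pups were born to dams dosed with the mixture at 1.0 mg/kg/day and were nursed, after cross-fostering at birth, by other dams on the same mixture. CC pups were cross-fostered between control dams. M pups stayed with their own mixture-dosed dams, and C pups stayed with their own control dams, which received corn oil only. The mixture held organochlorine pesticides, polychlorinated biphenyls and methylmercury in corn oil, given through gestation and lactation. Each array carried the pooled RNA of 2 pups in the Cy5 channel and a universal rat reference RNA, made from 14 rat cell lines, in the Cy3 channel. Pups of both control groups were hybridised on 1 slide and pups of both mixture groups on the other. The mixture and the slide therefore cannot be told apart in any comparison of mixture with control pups. Litters are not named in the labels, so p-values measure the spread between pools, which may share a litter.

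Kupffer cells take up particles, bacteria and worn red cells from portal blood. Marco is a scavenger receptor for bacteria and particles, and Cd163 is the scavenger receptor for haptoglobin-bound hemoglobin. In rodents Clec4f is a C-type lectin of Kupffer cells, and Cd68 is a glycoprotein of the macrophage lysosome. C1qa, C1qb and C1qc encode the chains of C1q, which starts the classical complement pathway and is made largely by macrophages. Aif1, also called Iba1, is an actin-binding protein of macrophages, and Coro1a is an actin-binding protein of leukocytes in general. Lst1 encodes a small membrane adaptor of myeloid cells and lymphocytes.

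Several facts of the arrays bear on every value that follows. Cy5 medians were 87 to 102 per array over a background of 67 to 73. A gene was called when its adjusted p (limma, Benjamini-Hochberg over the 12072 genes) was below 0.05. The signal of the reference RNA differed between the slides: in Cy3 alone 66.4% of all genes were called between the MM and CC arrays and 65.9% between the M and C arrays. Array CC 1 stood apart. Its Cy3 level of 14 hepatocyte genes averaged 10.36 (log2 intensity), against 9.39 to 9.60 on the other 15 arrays. Arrays CC 1 and CC 2 averaged 3.15 and 3.16 (log2 ratio) over 4 skeletal muscle genes, against -1.02 to -0.64 on the others. Counts that rest on the CC group are therefore given with all arrays, without CC 1, and without CC 1 and CC 2. Among the mixture arrays, MM 3 had the lowest Cy5 median (87) and the smallest share of Cy5 signals above background (46.2%). When arrays were weighted by how closely they followed their group, MM 3 (0.33) and CC 1 (0.36) had the lowest weights.

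All 10 genes were well above background in the Cy5 channel on all 16 arrays. Of 28 other macrophage genes on the array, 19 were above background on all 16 arrays, among them Adgre1 and Cd5l, and 5 were above it on none, among them Itgam and Mpeg1. Of 22 T and NK cell genes 6 were above it on all arrays, among them Cd3d and Cd3g, and 11 on none, among them Cd3e and Cd8a. Of 17 granulocyte and mast cell genes 3 were above it on all arrays, among them S100a8 and S100a9, and 11 on none, among them Elane. The level of each gene was read as the log2 ratio of liver over reference. Averaged over the 4 arrays of a group, Clec4f was 88.6-fold above the reference in MM livers, 92.1-fold in CC, 89.0-fold in M and 101-fold in C. C1qa was 53.9-fold above it in MM, 57.3-fold in CC, 52.7-fold in M and 64.4-fold in C livers. Coro1a lay below the cell-line reference in every group, 4.88-fold in MM, 2.15-fold in CC, 4.05-fold in M and 2.75-fold in C livers. Cd68 was close to the reference, between 0.97-fold in MM and 1.17-fold in C livers. The Cy3 spot of Cd163 was not above background on any of the 16 arrays and that of Marco was above it on 5, so their ratios rest on a reference signal near the background.

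Start-site sequences are shown for Marco, Cd68 and C1qb, the members whose promoter holds the core element of PU.1, the ETS factor of myeloid cells, and for Coro1a, which was called between MM and CC livers in each fit that left out 1 array. The sequences are from RefSeq (GRCr8), which had a promoter for 7 of the 10 genes in the table used: C1qa, C1qb, Cd163, Clec4f, Marco, Cd68 and Coro1a. Each runs 5′ to 3′ from 250 bases before to 50 bases after the start site, and capitals mark GAGGAA or its reverse complement.
Marco, minus strand of chr13:34201206-34201505: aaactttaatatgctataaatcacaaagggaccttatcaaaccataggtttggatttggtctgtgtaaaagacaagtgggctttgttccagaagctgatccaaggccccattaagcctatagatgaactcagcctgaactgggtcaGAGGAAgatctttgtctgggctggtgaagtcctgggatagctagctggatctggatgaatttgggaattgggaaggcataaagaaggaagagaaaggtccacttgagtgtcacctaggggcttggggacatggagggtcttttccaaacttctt
Cd68, minus strand of chr10:54882392-54882691: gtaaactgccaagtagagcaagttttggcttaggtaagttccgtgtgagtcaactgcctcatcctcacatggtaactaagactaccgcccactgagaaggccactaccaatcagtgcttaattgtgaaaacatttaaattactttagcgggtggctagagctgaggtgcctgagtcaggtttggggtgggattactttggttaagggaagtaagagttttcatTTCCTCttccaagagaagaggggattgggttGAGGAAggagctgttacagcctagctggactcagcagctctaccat
C1qb, minus strand of chr5:154407778-154408077: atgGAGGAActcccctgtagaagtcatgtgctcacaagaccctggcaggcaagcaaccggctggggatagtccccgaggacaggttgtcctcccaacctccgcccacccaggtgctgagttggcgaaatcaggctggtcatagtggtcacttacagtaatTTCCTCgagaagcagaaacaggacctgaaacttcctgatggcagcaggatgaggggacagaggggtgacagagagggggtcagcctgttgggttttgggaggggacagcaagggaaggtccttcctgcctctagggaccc
Coro1a, minus strand of chr1:190731054-190731353: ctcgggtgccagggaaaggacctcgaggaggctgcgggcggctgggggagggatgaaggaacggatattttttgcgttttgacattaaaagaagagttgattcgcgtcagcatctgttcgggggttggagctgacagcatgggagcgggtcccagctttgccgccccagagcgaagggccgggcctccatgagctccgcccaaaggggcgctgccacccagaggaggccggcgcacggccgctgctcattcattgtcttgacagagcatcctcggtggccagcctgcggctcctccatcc
The element was searched on both strands. It was present in 3 of the 7 promoters, against 27.6% of 33469 rat promoters of the same length. Cd68 had 2 copies, C1qb had 2 and Marco had 1. The longer form GAGGAAGT, which contains the same letters, was in 0 of the 7, against 2.42% of all promoters. TGCTGA, a core of sites bound by Maf factors, was in 4 of the 7 (C1qa, C1qb, Cd68 and Coro1a), against 18.4% of all promoters. The form TTNNGNAA of C/EBP sites was in 3 of the 7, against 41.3%. These are matches of letters only.

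The calls lay between the cross-fostered groups. In MM livers 5 of the 10 genes were lower than in CC livers, namely Coro1a, Lst1, Marco, Aif1 and C1qc, and none was higher. Over all genes tested, 12.3% were called lower and 7.89% higher in that comparison. The members, and the gene lists below, were chosen with earlier results of these data known, so such shares are set beside their counts as a description only. All 10 members had a negative difference, with a median of -0.31 on the log2 scale, against -0.06 over all genes. In whole liver RNA, fewer cells of a type and less RNA per cell cannot be told apart. Without CC 1, 2 of the 10 genes were called lower (Coro1a and Lst1), against 10.8% of all genes, and without CC 1 and CC 2 the count was also 2, against 6.72% of all genes. Without MM 3, 3 of the 10 were called lower, against 18.6% of all genes called in either direction.

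**Figure D1:**
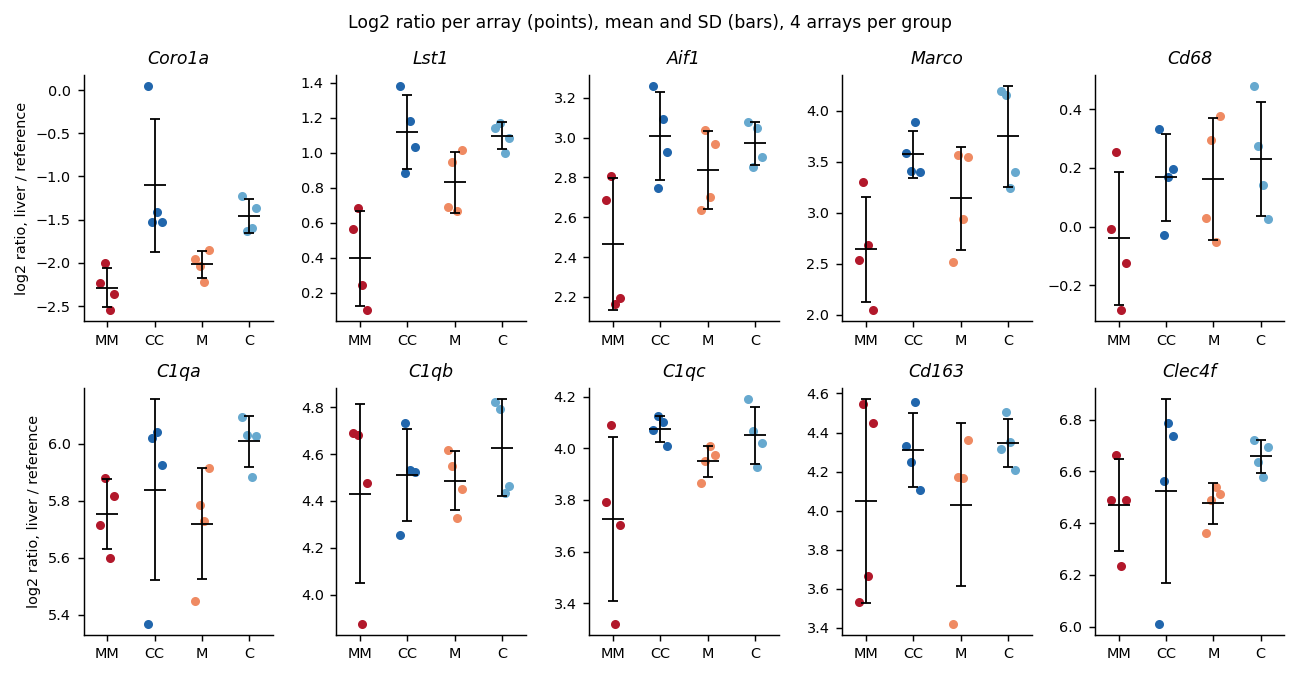
Log2 ratio of liver over reference for each of the 10 genes, 1 panel per gene, with 1 point per array and the mean and SD of the 4 arrays of the MM, CC, M and C groups. Coro1a, Lst1 and Marco show all 4 MM points below all 4 CC points, and the Coro1a point of CC 1 at 0.049 lies far above the other CC points.

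Coro1a had log2 ratios of -2.23, -2.00, -2.55 and -2.36 on the 4 MM arrays, against 0.049, -1.53, -1.41 and -1.53 on the 4 CC arrays. The groups did not overlap, and CC 1 was much the highest. The ratio of Coro1a to the reference was 2.27-fold lower in MM than in CC livers (difference -1.18 ± 0.26 SE, adjusted p = 0.00514 by limma). Without CC 1 the difference was -0.80 and remained called, with an adjusted p of 8e-04. Coro1a was called in all 16 fits that left out 1 array.

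Lst1 had 0.56, 0.68, 0.24 and 0.10 in MM livers, against 1.38, 0.89, 1.18 and 1.03 in CC livers. No MM array reached the lowest CC array. The difference of -0.72 ± 0.13 (adjusted p = 0.00124, limma) amounts to a ratio 1.65-fold lower in MM livers. It was called in all 16 fits that left out 1 array, and without CC 1 it was -0.63.

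Marco had 2.54, 3.30, 2.68 and 2.04 on the MM arrays, against 3.59, 3.41, 3.89 and 3.40 on the CC arrays. Here too all 4 MM arrays lay below all 4 CC arrays, which was so for 3 of the 10 members and for 13.3% of all genes. The ratio was 1.91-fold lower in MM livers (-0.93 ± 0.28, adjusted p = 0.0292, limma), and the call was kept in 12 of the 16 fits that left out 1 array. Without CC 1 the adjusted p of Marco was 0.053, without CC 3, MM 1 or MM 4 it was also not called, and the difference stayed between -0.93 and -0.73.

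Aif1, the second probe of which gives a check, had 2.69, 2.81, 2.17 and 2.19 on the MM arrays, against 3.26, 2.75, 3.09 and 2.93 on the CC arrays. One MM array, MM 2, lay above the lowest CC array, and MM 3 and MM 4 were the lowest. The brighter Aif1 probe gave -0.54 ± 0.15 (adjusted p = 0.0173) and the second probe -0.48 ± 0.12 (adjusted p = 0.0119), both by limma. The second probe was tested in a separate limma fit over the single probes kept, where the brighter probe had an adjusted p of 0.0168. These are ratios to the reference. The second probe averaged 10.74 in MM and 10.89 in CC livers in Cy5 (log2 intensity). Its Cy3 averaged 9.65 on the MM and 9.33 on the CC arrays, so its channels differed in opposite directions. Aif1 was not called without CC 1 (-0.46, adjusted p = 0.051), without MM 3 or without MM 4.

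C1qc had 3.79, 4.09, 3.32 and 3.70 in MM livers, against 4.07, 4.12, 4.10 and 4.01 in CC livers, a difference of -0.35 ± 0.12 (adjusted p = 0.0444, limma). MM 2 lay among the CC arrays, and MM 3 was the lowest. The call was kept in 4 of the 16 fits that left out 1 array, and the difference was -0.21 without MM 3. The other chains of C1q did not pass the test. C1qa averaged 5.75 ± 0.12 in MM and 5.84 ± 0.32 in CC livers, and C1qb 4.43 ± 0.38 in MM and 4.51 ± 0.20 in CC livers (SD, n = 4 arrays each). Their 95% confidence intervals ran from -0.37 to 0.19 for C1qa and from -0.42 to 0.26 for C1qb.

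The 3 remaining members did not pass the test either. Cd68 averaged -0.04 ± 0.23 in MM and 0.17 ± 0.15 in CC livers, a difference of -0.21 ± 0.13 SE. Cd163 averaged 4.05 ± 0.52 in MM and 4.31 ± 0.19 in CC livers. MM 1 and MM 3, at 3.53 and 3.66, were well below MM 2 and MM 4, at 4.55 and 4.45. Clec4f, the Kupffer cell lectin, averaged 6.47 ± 0.18 in MM and 6.52 ± 0.36 in CC livers, and its 95% interval of the difference was -0.34 to 0.23.

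In pups kept with their own dams, none of the 10 genes was called between M and C livers, while 20.2% of all genes tested were. At an unadjusted p below 0.05 there were 3 members, against 33.5% of all genes. Every member again had a negative difference, with a median of -0.22, against -0.05 over all genes. Coro1a had -1.96, -2.03, -2.23 and -1.86 in M livers, against -1.23, -1.64, -1.60 and -1.36 in C livers. The groups did not overlap, and the difference of -0.56 ± 0.26 had an adjusted p of 0.148 (limma). Without CC 1, which enters only through the shared estimate of the spread, the same difference had an adjusted p of 0.0038 and was called, as was C1qa, while 13.4% of all genes were then called lower.

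C1qa had 5.45, 5.79, 5.73 and 5.91 in M livers, against 6.09, 6.03, 5.88 and 6.03 in C livers. One M array, M 8, lay above the lowest C array. The difference was -0.29 ± 0.13, with an adjusted p of 0.138 with all arrays and 0.037 without CC 1 (limma). Clec4f had 6.36, 6.49, 6.54 and 6.51 in M livers, against 6.72, 6.64, 6.58 and 6.70 in C livers. The 4 M arrays lay below the 4 C arrays by a small margin, with a difference of -0.18 ± 0.13 and an adjusted p of 0.372. Groups without overlap in that direction were found for 2 of the 10 members and for 15.2% of all genes.

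Marco was split within both groups, with 2.52, 3.56, 2.94 and 3.55 in M livers, against 4.20, 4.16, 3.24 and 3.40 in C livers. M 6 and M 8 lay above the 2 lower C arrays. The difference was -0.61 ± 0.28 (adjusted p = 0.142, limma). Lst1 had 0.69, 0.95, 0.67 and 1.01 in M livers, against 1.14, 1.17, 1.00 and 1.08 in C livers. M 8 alone reached the C range, and the difference was -0.27 ± 0.13 (adjusted p = 0.163). The 5 other members had differences between -0.32 (Cd163) and -0.07 (Cd68), none of which was called.

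The ratio combines a liver signal with a reference signal, and the 2 channels were also compared separately. Each channel was then quantile-normalized over the arrays on its own, so its differences need not add up to that of the ratio. In the liver channel alone, none of the 10 genes was called in either comparison, against 2.57% of all genes between MM and CC livers and 2.25% between M and C livers. The liver-channel differences between MM and CC were -0.57 ± 0.19 for Marco, -0.53 ± 0.26 for Coro1a, -0.37 ± 0.15 for Aif1, -0.32 ± 0.13 for Lst1 and -0.32 ± 0.11 for C1qc. Those for C1qb and Cd68 were -0.45 and -0.44. All 10 members were negative in the liver channel, with a median of -0.35, against a median of -0.003 over all genes.

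Between MM and CC arrays the reference channel was called higher for 3 members and lower for 2. Cy3 of Coro1a averaged 12.50 on the slide of the mixture groups and 11.89 on the slide of the control groups, and each of the 8 arrays of the first lay above each of the 8 of the second. Lst1 averaged 9.91 and Aif1 10.13 in Cy3 on the mixture slide, against 9.55 for Lst1 and 9.97 for Aif1 on the control slide, also without overlap. These 3 reference differences were called in both comparisons, at 0.60 for Coro1a, 0.37 for Lst1 and 0.17 for Aif1 between MM and CC arrays. C1qb and Cd68 were lower in the reference channel of MM arrays, at -0.35 (adjusted p = 0.0142, limma) and -0.23 (adjusted p = 0.0467), the same sign as in their liver channel. Beside a liver-channel difference of -0.45 for C1qb, its ratio differed by only -0.08. Marco and Cd163 had reference differences of -0.09 and -0.04 between MM and CC arrays, neither called. Between M and C arrays C1qc was also called higher in the reference channel, at 0.20.

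**Figure D2:**
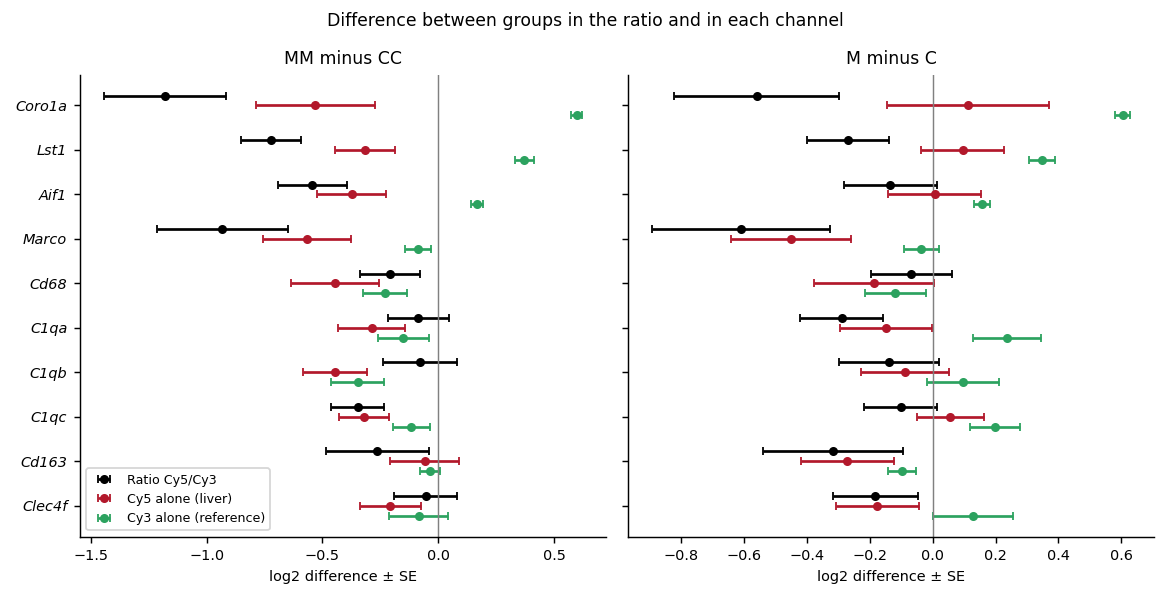
Log2 difference with its SE for each gene between MM and CC (left) and between M and C (right), for the ratio, the liver channel (Cy5) and the reference channel (Cy3). Coro1a, Lst1 and Aif1 show a reference difference above 0 in both panels, and Marco a liver-channel difference of -0.57 (left) and -0.45 (right).

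For M against C, the liver-channel differences were of both signs. Coro1a had 0.11 and Lst1 had 0.10 in the liver channel, against ratio differences of -0.56 and -0.27, so both were negative in the ratio but not in the liver channel. Marco stayed at -0.45 ± 0.19, with a liver-channel adjusted p of 0.261 (limma). The median of the 10 members in the liver channel was -0.12 for M against C. How much of each ratio difference belongs to the slide, the reference or the liver RNA cannot be told apart in this design.

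**Figure D3:**
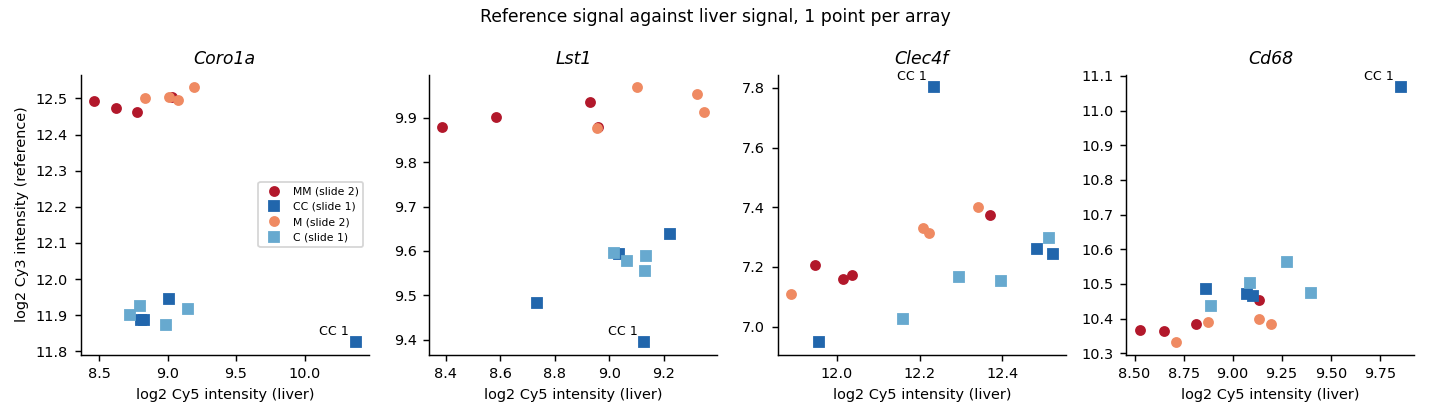
Log2 intensity of the reference channel against that of the liver channel for Coro1a, Lst1, Clec4f and Cd68, 1 point per array, circles for the mixture slide and squares for the control slide. Coro1a and Lst1 separate by slide in the reference channel, and CC 1 lies apart at a Cy3 of 7.80 for Clec4f and 11.07 for Cd68.

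Array CC 1 had a raised liver signal for some members and a raised reference signal for others. Its Cy5 of Coro1a was 10.37, against 8.80 to 9.01 on the other CC arrays. Its Cy3 of Clec4f was 7.80, against 6.95 to 7.26 on the other CC arrays, and its Clec4f ratio of 6.01 was the lowest of all 16 arrays. C1qa was likewise at 5.37 on CC 1 and between 5.93 and 6.04 on the other CC arrays. With CC 1 left out, the difference between MM and CC was -0.23 for Clec4f and -0.24 for C1qa, against -0.06 and -0.09 with it, and neither was called. The mean log2 ratio of 8 T and NK cell genes was 0.13 on CC 1, against -0.75 to -0.31 on the other 15 arrays, and that of 18 pan-leukocyte genes was -0.56, against -1.13 to -0.84. The part of these transcripts in the values of CC 1 was not tested.

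Cross-fostering itself was compared within a slide. Between MM and M livers 0 of 10 members and 0 of 12072 genes were called by limma, with 2 of 10 members and 2.29% of all genes at an unadjusted p below 0.05. Lst1 had the smallest unadjusted p among the members, 0.0043, at 0.56, 0.68, 0.24 and 0.10 in MM livers, against 0.69, 0.95, 0.67 and 1.01 in M livers. Only MM 2 exceeded the lowest M array, and the difference was -0.43 ± 0.13, with an adjusted p of 0.999. Aif1 followed with a difference of -0.37 ± 0.15 and an unadjusted limma p of 0.0233. For these 2 genes the reference channel differed by no more than 0.03 between the MM and M arrays, and the liver channel gave -0.47 for Lst1 and -0.39 for Aif1.

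Between CC and C livers 0 of 10 members and 0 of 12072 genes were called, and no member had an unadjusted limma p below 0.05, against 2.77% of all genes. Differences ran from -0.18 for Marco to 0.35 for Coro1a, and that of Coro1a was -0.03 without CC 1. The test of whether cross-fostering acted differently with and without the mixture called 0 of 10 members and 0 of 12072 genes, with 2.98% of all genes at an unadjusted p below 0.05. Lst1 was the 1 member below that level, with an estimate of -0.45 ± 0.18 and an adjusted p of 0.999. The slide shift common to both groups of a slide cancels in that estimate. The calls between MM and CC and their absence between M and C are thus not shown to differ.

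From lowest to highest, the order of mean levels was MM, M, C, CC for Coro1a, Lst1, Aif1 and C1qc, and MM, M, CC, C for Marco. For Coro1a, Lst1 and Aif1 the place of CC above C rests on CC 1: without it CC minus C was -0.03, -0.07 and -0.05, while C1qc kept 0.03. The step between M and C exceeded the pooled SD of those groups for Coro1a (0.56 against 0.18), Lst1 (0.27 against 0.14) and C1qc (0.10 against 0.09), and for Marco that between M and CC did (0.43 against 0.39). The step between MM and M exceeded it for Lst1 (0.43 against 0.23), Aif1 (0.37 against 0.27) and Coro1a (0.27 against 0.20). For C1qa, C1qb, Cd163, Cd68 and Clec4f no neighbouring groups in the order were farther apart than their pooled SD.

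Each slide held its arrays in 2 rows, with 2 arrays of each group per row, and the row was looked at as a position on the slide. Within row 1 the difference between MM and CC was -1.38 for Coro1a, -0.51 for Lst1, -0.58 for Marco, -0.26 for Aif1 and -0.16 for C1qc, and none was called, against 4.91% of all genes. Within row 2 it was -0.98 for Coro1a, -0.93 for Lst1, -1.29 for Marco, -0.83 for Aif1 and -0.54 for C1qc, and all 5 were called, against 10.1% of all genes. The MM arrays of row 2 are MM 3, which had the lowest array weight (0.33), and MM 4. C1qa, C1qb and Clec4f had opposite signs in the rows, at 0.10, 0.19 and 0.29 in row 1 and -0.28, -0.35 and -0.40 in row 2. The CC arrays of row 1 are CC 1 and CC 2. Without CC 1, which leaves 1 CC array in that row and takes its spread from the other groups, the row 1 differences were -0.22 for C1qa, -0.04 for C1qb and 0.01 for Clec4f. They were then -0.59 for Coro1a, -0.26 for Lst1, -0.49 for Marco, -0.18 for C1qc and 0.00066 for Aif1, none called, against 1.52% of all genes. For M against C, Marco had -1.14 in row 1 and -0.08 in row 2, and Coro1a had -0.56 in both. For MM against M, Lst1 had -0.20 in row 1 and -0.67 in row 2, and Aif1 had -0.09 and -0.65. On the mixture slide 15.4% of all genes were called between the rows, but none of the 10 members was, and on the control slide 1 gene in all was.

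The members varied together within groups in part. After subtracting group means, 39 of the 45 pairs of members correlated positively over the 16 arrays, with a median Pearson r of 0.43 and a range of -0.62 to 0.90. Over all pairs of 12070 genes 50.4% were positive and the median was 0.004. A permutation test within groups, adjusted over the 45 pairs, called 6 pairs, the lowest at an r of 0.64. An r of that size in either direction was found in 8 of the 45 pairs and in 9.03% of all gene pairs. Aif1 and Lst1 had the highest r, 0.90 (adjusted permutation p = 0.0246), with a Spearman correlation of 0.91 (adjusted permutation p = 0.0471) and an r of 0.88 without the 2 arrays farthest from the median. They lie on chromosome 20 with Ncr3 alone between them in the RefSeq gene order.

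Cd68 correlated with Aif1 at 0.80 and with Lst1 at 0.80 (adjusted permutation p = 0.0196 for each), with Spearman correlations of 0.79 and 0.81 (adjusted permutation p = 0.0355 for each) and r of 0.71 and 0.74 without the 2 farthest arrays. C1qa and Clec4f reached 0.88 (adjusted permutation p = 0.0196, Spearman 0.76 with 0.0552, r of 0.75 without the 2 farthest arrays), Marco and Lst1 0.71 (0.0246, Spearman 0.68 with 0.0552, r of 0.63 without those 2), and Coro1a and Lst1 0.64 (0.0357, Spearman 0.61 with 0.0862, r of 0.61 without those 2). Without CC 1 the 6 values of r lay between 0.60 and 0.89. After the array rows were also removed, these 6 values of r lay between 0.63 and 0.93. The called pairs thus join Cd68, Aif1, Lst1, Marco and Coro1a to one another through Lst1, and C1qa to Clec4f. Coro1a had -0.59 with C1qa and -0.62 with Clec4f, and 0.07 and -0.21 without the 2 farthest arrays. The C1q chains, whose genes adjoin in the order C1qb, C1qc, C1qa on chromosome 5, correlated at 0.75 (C1qb with C1qc), 0.46 (C1qa with C1qb) and 0.41 (C1qa with C1qc), none called. All pairs share their array, its loess curve and its reference.

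**Figure D4:**
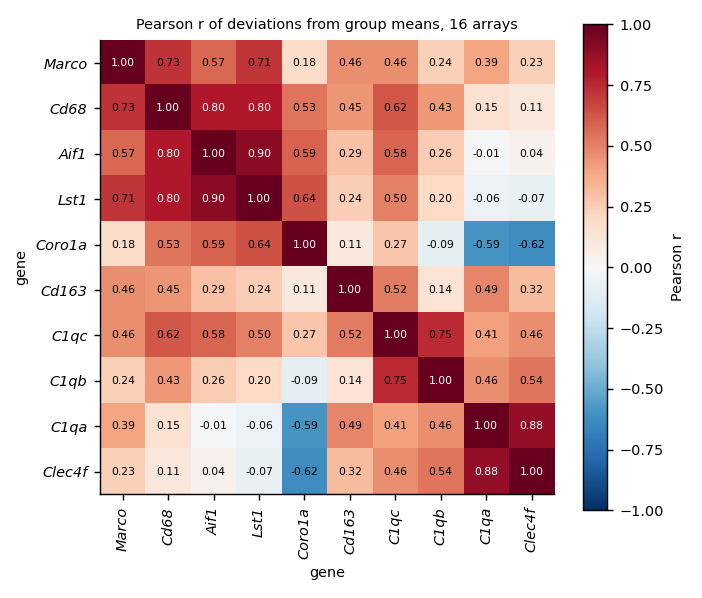
Pearson correlation between the 10 genes over 16 arrays, each value taken as the deviation from its group mean, with the colour running from -1 (blue) to 1 (red). Aif1 and Lst1 have the highest r, 0.90, and Coro1a is negative with C1qa and Clec4f.

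Some members also shared the noise of both channels. Over the 16 arrays, deviations of Cy5 and Cy3 from their group means correlated at 0.81 for C1qc and 0.79 for Cd68, and at -0.51 for Coro1a, which serves as a description only. By the likeness of residuals after group and array row, the genes closest to each member among 7884 with a symbol were as follows. Marco was closest to Ctss (r = 0.91) and Fcgr1a (0.91), Lst1 to Irf5 (0.94) and Tifab (0.93), and Aif1 to Abcg1 (0.93) and Dpf2 (0.91). Cd68 was closest to Lta4h (0.93) and Xcl1 (0.93), Cd163 to Fbl (0.94) and Dchs1 (0.92), and Coro1a to Pacs1 (0.96) and Hspb1 (0.94). C1qa was closest to Acadvl (0.96) and Scand1 (0.95), C1qb to Nipsnap1 (0.97) and Apob (0.96), C1qc to Bco2 (0.95) and Dguok (0.95), and Clec4f to Lhx2 (0.95) and Xylb (0.94). Each is the highest or next highest of 7884 values over 16 arrays, and without CC 1 the r of Coro1a with Hspb1 was 0.86.

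Other macrophage genes were read from a list of 32, of which 20 were bright enough to be tested. Between MM and CC livers 4 of the 20 were called lower and none higher, with a list median of -0.29. They were Tyrobp (-0.64 ± 0.14) and Fcer1g (-0.58 ± 0.12), adaptors that carry signals of myeloid receptors, Csf2ra (-0.37 ± 0.10), the alpha chain of the GM-CSF receptor, and Cx3cr1 (-0.36 ± 0.07), the receptor of fractalkine. The share of all genes called lower was 12.3%. Without CC 1, 5 of the 20 were called lower, and also 5 without CC 1 and CC 2, where 10.8% and 6.72% of all genes were lower. In the liver channel alone Cx3cr1 was higher in MM livers, at 0.58 with an adjusted p of 0.00566 (limma), while its reference channel differed by 1.09. The liver-channel median of the list was -0.13.

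Adgre1, which encodes an adhesion receptor used to mark macrophages, had a difference of -0.48 ± 0.24 and Vsig4, a complement receptor of Kupffer cells, -0.36 ± 0.15, neither called. Between M and C livers 2 of the 20 were called lower, Csf2ra (-0.47 ± 0.10) and Cx3cr1 (-0.34 ± 0.07), and none higher, with a median of -0.08. Without CC 1, and without CC 1 and CC 2, 3 were called lower, where 13.4% and 13% of all genes were. In the liver channel alone 1 of the 20 was called higher in M than in C livers and 0 lower. The liver-channel median of the list was then 0.01, and 2.25% of all genes were called. Of all genes, 11.9% were called lower and 8.3% higher in M livers. Summed Cy5 intensity of the list ran from 14211 to 17107 over the MM arrays and from 14922 to 17412 over the CC arrays. It ran from 14508 to 20214 over the M arrays and from 16680 to 17307 over the C arrays. The summed levels overlapped between the groups of each comparison.

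Of 30 pan-leukocyte genes 18 were tested. In MM livers 5 were called lower than in CC livers and none higher, with a median of -0.25, where 12.3% of all genes were lower and 7.89% higher. Among them were Arhgdib (-0.73 ± 0.14), Cyba (-0.48 ± 0.12), a subunit of the phagocyte oxidase, Itgb2 (-0.35 ± 0.09), the beta chain of leukocyte integrins, and Ptprc (-0.37 ± 0.12), the leukocyte phosphatase CD45. Without CC 1, 3 were called lower and 1 higher, and without CC 1 and CC 2, 3 lower and none higher. The shares of all genes called lower were then 10.8% and 6.72%. In the liver channel alone none of the 18 was called, and the median was -0.11. Between M and C livers Evi2a was called lower (-0.27 ± 0.09) and Hcls1, a substrate of leukocyte kinases, higher (0.47 ± 0.09). Their Cy5 signals were above background on 11 (Evi2a) and 13 (Hcls1) of the 16 arrays.

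**Figure D5:**
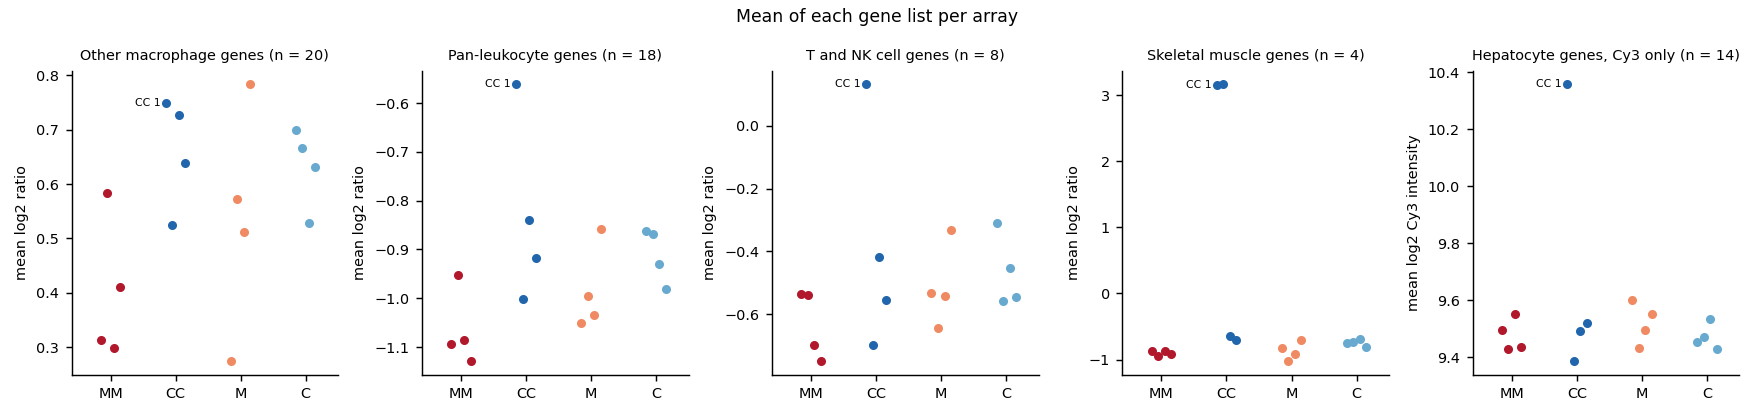
Mean log2 ratio per array of the tested genes of 4 lists (other macrophage, pan-leukocyte, T and NK cell, skeletal muscle) and mean log2 Cy3 intensity of the hepatocyte list, in the MM, CC, M and C groups. CC 1 is highest in the pan-leukocyte, T and NK cell and hepatocyte Cy3 panels, and CC 1 and CC 2 stand at 3.15 and 3.16 in the muscle panel.

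Lists of lymphocytes, granulocytes and antigen presentation held fewer measured genes. None of 8 T and NK cell genes, 3 B cell and plasma cell genes, 4 granulocyte and mast cell genes and 7 genes of MHC class II and its costimulators was called in either mixture comparison. Their medians between MM and CC livers were -0.21 for the T and NK cell list, -0.11 for the B cell list, -0.44 for the granulocyte list and -0.06 for the MHC class II list. None of 8 endothelial genes was called either, at a median of -0.10. Among 14 hepatocyte genes none was called with all arrays, at a median of 0.17. Without CC 1, 1 was called lower, at a median of -0.16, where 10.8% of all genes were lower. Without CC 1 and CC 2, 1 was called lower, where 6.72% of all genes were. In M against C livers the hepatocyte count was 0 with all arrays. There 4 were lower without CC 1 and likewise without both arrays, where 13.4% and 13% of all genes were lower. The T and NK, B cell, granulocyte, MHC class II and endothelial lists stayed at 0 called without CC 1 and without both.

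Products that macrophages make or receive were mixed. Of 13 cytokine genes, 4 were lower in MM than in CC livers, where 12.3% of all genes were: Il1rn (-0.41 ± 0.13), the interleukin-1 receptor antagonist, Il34 (-0.40 ± 0.13), a ligand of the CSF1 receptor, Tgfb1 (-0.30 ± 0.08) and the chemokine Ccl24 (-0.23 ± 0.06). Il1rn (-0.63 ± 0.13), Ccl24 (-0.35 ± 0.06) and Tgfb1 (-0.26 ± 0.08) were also lower in M than in C livers. The Cy5 signal of Tgfb1 was above background on 11 of the 16 arrays. None of the 13 was called in the liver channel alone. In MM against CC livers 3 were lower without CC 1 and 1 without CC 1 and CC 2, where 10.8% and 6.72% of all genes were lower. In M against C livers the count stayed at 3 in both cases, where 13.4% and 13% of all genes were lower, against 11.9% with all arrays.

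Among 14 other complement genes and receptors, C5ar1, the receptor of C5a, was lower in MM livers (-0.41 ± 0.09). Lrp1, a scavenger receptor (1.12 ± 0.14), and C1s, a protease that acts with C1q (0.50 ± 0.12), were higher. Of all genes, 12.3% were lower and 7.89% higher between MM and CC. Without CC 1, 3 of the 14 were lower and 2 higher, and without CC 1 and CC 2, 3 lower and 1 higher. The shares of all genes lower were then 10.8% and 6.72%. Lrp1 and C1s were also higher in M than in C livers, at 0.90 and 0.47, with none lower, where 8.3% of all genes were higher. Without CC 1 or without both arrays 2 of the 14 were lower, where 13.4% and 13% of all genes were. In the liver channel alone none of these was called. Of 15 lysosomal genes 2 were higher in MM livers, Lipa, the lysosomal acid lipase (0.65 ± 0.13), and Psap, the saposin precursor (0.57 ± 0.15), where 7.89% of all genes were higher. The count was 3 without CC 1 and 2 without CC 1 and CC 2, where 18.4% and 12.3% of all genes were called in either direction. In M livers 6 were higher than in C livers, where 8.3% of all genes were, among them Lgmn (0.55 ± 0.11) and Ctsz (0.47 ± 0.13), both lysosomal proteases. Without CC 1 and likewise without both arrays 5 were higher, where 22.3% and 21.5% of all genes were called in either direction. In the liver channel alone 0 of the 15 were higher and 1 lower in M than in C livers. Between MM and CC livers 1 of the 15 was higher and 1 lower in the liver channel. The lower one was Psap, at -0.74 with an adjusted p of 0.00723 (limma), opposite to its ratio.

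Of the remaining lists, 2 of 4 skeletal muscle genes were lower in MM than in CC livers, where 12.3% of all genes were lower. They were Tnnc2 (-2.96 ± 0.88) and Tnnt1 (-2.13 ± 0.56), both troponin subunits. Without CC 1, 1 of the 4 was called lower, and without CC 1 and CC 2, 2 were, against 10.8% and 6.72% of all genes. Summed muscle Cy5 intensity was 591 to 635 over the MM arrays, against 642 to 11969 over the CC arrays, with CC 1 and CC 2 highest. Of 11 stellate cell genes Reln was higher in MM than in CC livers and in M than in C livers, at 0.54 and 0.38. Of all genes, 7.89% and 8.3% were higher in those comparisons with all arrays. The stellate counts were 3 and 2 without CC 1, where 18.4% and 22.3% of all genes were called in either direction. They were 2 and 2 without CC 1 and CC 2, where 12.3% and 21.5% were. Of 7 erythroid genes Epor, the erythropoietin receptor, was lower in M than in C livers (-0.33 ± 0.08), where 11.9% of all genes were lower. Its Cy5 signal was above background on only 8 of the 16 arrays. Without CC 1 and likewise without both arrays 2 of the 7 were lower, where 13.4% and 13% of all genes were.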

How the data were processed

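Liver RNA of 16 pools, 4 per group, was measured on dual-colour Agilent arrays. Per the file headers, spots were read by Agilent Feature Extraction, version 11.0.1.1. The deposited intensity of a spot is the median of its pixels, with a local background. The deposited log10 ratio of Cy5 over Cy3 is the scanner software's own. The deposited series table holds log2 ratios whose normalization is not given in the sources used here, with array medians of -0.049 to -0.037. Its r against the ratios computed here was 0.998 to 0.999 per array, which settles its direction; how it was centred is not stated.

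Background was corrected by normexp (offset 50), outlier spots were left out, log2 ratios were normalized by loess within arrays and replicate spots were averaged. Probes entered the test when the Cy5 signal of 3 or more arrays in some group passed the scanner's background test (13262 of 30367 probes). The brightest probe stood for a gene. Probes were named through RefSeq (18005 probes with a symbol), with no coordinates, since the files' annotation is of build rn4. A mean per group was fitted over 12072 genes with limma 3.58.1 in R 4.3.3 (eBayes, 12 residual and 3.94 prior degrees of freedom, two-sided tests, Benjamini-Hochberg). The 4 arrays per group limit the precision, and no spot was saturated.

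All 10 members are named in every comparison, with up to 4 called genes of each of 14 lists and the 2 genes most like each member. The members and lists were chosen with earlier results of these data known. The leave-outs of CC 1 and CC 2 together, and of CC 1 within array row 1, were chosen after seeing the data. The main fit did not pair MM and CC samples by replicate number. Same-numbered arrays correlated at 0.34, 0.05, 0.18 and 0.11, and arrays of other numbers at -0.34 to 0.28. Arrays of the same number also shared an array row, so these values cannot tell pairing from row. Figures used Python 3.11.15 and matplotlib 3.10.9. The R packages jsonlite 2.0.0 and data.table (version 1.17.8) read the files.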

Additional observations from a re-analysis of the deposited data

Results flagged for a closer look

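In the CC group the Coro1a log2 ratio of array CC 1 was 0.049, against -1.53 to -1.41 on the other 3 arrays, a gap that passed Dixon's 95% limit. It was the only such value among 40 tests (10 genes in 4 groups), and chance flags about 1 in 20 groups. The same array had the high reference signal of hepatocyte genes given above.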

How the results depend on the processing

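All counts are of the 10 members called, with the share of all genes called in the same setting in brackets. Between MM and CC the count was 5 (20.2%). It was 0 in Cy5 alone (2.57%), 0 within array row 1 (4.91%), 0 within array row 1 without CC 1 (1.52%), 3 with the 2 groups only (13%), 3 with the replicate block (16.6%; Aif1 and C1qc lost, at adjusted p of 0.058 and 0.094) and 2 without CC 1 and CC 2 (12.3%). The block changed no other call. Leaving out 1 array gave 2 to 5 between MM and CC, the lowest without CC 1 or MM 4. Between M and C the count was 0 (20.2%) in the main analysis, 1 with the 2 groups only (19.4%), 3 with the scanner's log ratio (36.1%), 4 in Cy3 alone (65.9%), 2 without CC 1 and CC 2 (21.5%), and 0 to 2 when 1 array was left out. The other 3 comparisons gave 0 members under every alternative run. In Cy3 alone, which holds the reference RNA, the sign was turned for Coro1a (0.60 for M against C and 0.60 for MM against CC), Lst1 (0.35 and 0.37), Aif1 (0.16 and 0.17) and, for M against C, C1qc (0.20). Aif1 between MM and CC was 0.00066 within row 1 without CC 1, an alternative added after seeing the data. Setting Cy3 alone aside, 33 alternatives were run between MM and CC. The call was kept in 30 of them for Coro1a and Lst1, 24 for Marco and Aif1, and 12 for C1qc. Over all comparisons there were 1650 differences of single members under the alternatives. Of these, 46 kept their sign and lost the call, all between MM and CC, and 11 kept their sign and gained one. Another 1585 stayed on their side of the threshold. The remaining 8 turned in sign and are left out of the 46 and the 11, though most of them also lost or gained a call. The sign was turned in 141, of which 8 were called with or without the alternative (given above) and 133 were called in neither. Those 133 include 10 between MM and CC and 12 between M and C, among them Coro1a (0.11) and Lst1 (0.10) in Cy5 alone for M against C, and C1qa (0.10) within row 1 for MM against CC. The median over all genes between MM and CC was -0.06 here, -0.11 with the scanner's log ratio and -0.19 with median centring. Slide and mixture cannot be told apart, and 4 arrays per group limit what could be detected.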
